A study of Mus musculus with 2 samples.

Results

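The genes described here encode the subunits of the proteasome and the proteins that cap, activate or inhibit it. They were taken by name, as every row of the count table whose symbol was Psma, Psmb, Psmc, Psmd, Psme or Psmf followed by a number, which gave 43 of 13774 genes. By role these were 3 constitutive catalytic genes (Psmb5, Psmb6, Psmb7), 3 immune catalytic genes (Psmb8, Psmb9, Psmb10), 4 structural beta ring genes (Psmb1 to Psmb4), 7 alpha ring genes (Psma1 to Psma7), the testis alpha gene Psma8, 6 ATPases of the cap's base (Psmc), 14 other cap subunits (Psmd), 4 activators (Psme) and the inhibitor Psmf1. The group called other cap subunits holds every Psmd gene, among them the assembly chaperones Psmd5 and Psmd10.

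The proteasome is a barrel-shaped protease that degrades ubiquitin-tagged proteins. Its outer rings are made of alpha subunits and its inner rings of beta subunits, of which those encoded by Psmb5, Psmb6 and Psmb7 carry the active sites. The regulatory cap recognises ubiquitin chains, unfolds the substrate with its ATPases and feeds it into the barrel. Interferon-gamma induces the replacement of these catalytic subunits by those of Psmb8 (LMP7, in place of Psmb5), Psmb9 (LMP2, in place of Psmb6) and Psmb10 (MECL1, in place of Psmb7), and also the ring-shaped activator encoded by Psme1 and Psme2. The resulting immunoproteasome is constitutively abundant in lymphocytes and antigen-presenting cells and is known for making peptides that fit class I molecules.

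The series compares sorted cells of normal mammary gland (NEC) and of EO771 tumors (TEC), with 1 single-cell library of 3' transcript ends for each. Both come from female Cdh5Cre-ERT2:ZSGreenl/s/l mice of the C57BL6/J strain, 8 weeks old, given tamoxifen so that the Cre expressed from the endothelial Cdh5 promoter switched on ZSGreen. The mice carried syngeneic EO771 mammary tumor cells in the mammary fat pad for about 3 weeks. By the labels, live ZSGreen-positive cells were collected from both tissues. The number of mice pooled for each library is not stated in the labels. After filtering, 1794 NEC cells (median 2259 UMIs, 801.5 genes) and 997 TEC cells (median 8594 UMIs, 2212 genes) were used. With 1 library per group nothing could be tested, no p-value is given, and differences between animals, between libraries and between tissues cannot be told apart. Values in parentheses after a level, share or ratio are 95% intervals of the counting error only.

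The labelled cell type was endothelial, and the data went against it. The deposited counts carry the word "negs" in their name. Whether they hold the ZSGreen-positive cells or another fraction could not be checked. Cdh5 and Kdr, which define endothelium, were listed at 0 UMIs over all NEC cells and at 6.17 CPM (5.03 to 7.50) and 12.2 CPM (10.6 to 14) over all TEC cells, and the 12 pan-endothelial markers in the table summed to 39.9 CPM in NEC and 92.7 CPM in TEC. CPM stands for UMIs per 1000000 UMIs of the summed cells. The 5 pan-leukocyte markers summed to 2312 CPM in NEC and 1850 CPM in TEC, and no cluster of cells met the marker rule for endothelium. The proteasome genes are therefore described in the classes that did: macrophage or monocyte-like cells (95 in NEC, of which 94 came from clusters 5 and 9, and 574 in TEC, each of them from cluster 8), T or NK-like cells (674 and 47), dendritic-like cells (37 and 145), and in NEC also B or plasma-like (672), fibroblast-like (73) and epithelial or mammary tumor-like cells (31). Cluster 14 (208 TEC and 4 NEC cells, led by Rhox5, Nppb and Cav1) met no marker rule and is called by its number. A barcode was shared by both libraries in 2 cases.

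Psmb8 and Psmb9 lie beside the peptide transporter genes in the major histocompatibility region of chromosome 17 (build mm10, which is GRCm38, and GENCODE M21). Psmb9 spans positions 34181987 to 34187764 and overlaps the start of Tap1 by 212 bases on the opposite strand, and Psmb8 (34197721 to 34201454) begins 495 bases after the end of Tap1. Psmb10 is on chromosome 8 (105935735 to 105938444). The constitutive genes are scattered, with Psmb5 on chromosome 14 (54614119 to 54618022), Psmb6 on chromosome 11 (70525367 to 70527858) and Psmb7 on chromosome 2 (38588036 to 38644087). Psme1 (55578123 to 55581529) and Psme2 (55587441 to 55591113) are neighbours on chromosome 14, with 5911 bases between them and opposite strands.

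Stretches before the start sites are printed for 4 catalytic genes, to show the motif matches found in the 250 bases before the RefSeq start (GRCm38.p6). The 36 of 43 members with such a window were searched on both strands for the letters TGACNNNGC (the antioxidant response element, ARE, bound by NRF factors), TTCNNNGAA (GAS, the gamma interferon activation site), TTTC followed after any 2 bases by TTTC (the core of the interferon-stimulated response element) and CCAAT; none of these patterns contains another. The bases that match are in capitals, and the order is Psmb5 (chr14:54618023-54618245, minus strand, the part of its window outside annotated exons), Psmb6 (chr11:70525107-70525356, plus strand), Psmb8 (chr17:34198088-34198117, plus strand) and Psmb9 (chr17:34187331-34187360, minus strand). The windows of Psmb8 and Psmb9 lie wholly inside annotated GENCODE exons, so that for these only 30 bases with the match are shown. Both windows also lie inside the GENCODE gene spans given above, so the bases before the GENCODE starts of these genes were not searched.
Psmb5: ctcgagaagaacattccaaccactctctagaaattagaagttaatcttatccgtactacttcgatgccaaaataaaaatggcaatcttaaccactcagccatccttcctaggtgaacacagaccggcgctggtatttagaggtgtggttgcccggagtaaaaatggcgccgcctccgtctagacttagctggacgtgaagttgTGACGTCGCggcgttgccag
Psmb6: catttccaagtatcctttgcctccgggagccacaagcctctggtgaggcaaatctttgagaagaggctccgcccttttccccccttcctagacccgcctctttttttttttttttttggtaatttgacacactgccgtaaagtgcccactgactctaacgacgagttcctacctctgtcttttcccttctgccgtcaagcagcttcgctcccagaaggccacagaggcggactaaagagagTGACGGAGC
Psmb8: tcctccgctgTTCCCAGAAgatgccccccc
Psmb9: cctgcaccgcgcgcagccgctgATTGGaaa

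The ARE letters were in the windows of Psmb5 (bases -47 to -39 before the start) and Psmb6 (-9 to -1), and in those of Psmc6, Psmd9 and Psmd12. That is 5 of 36 members, where 10.2% of 32851 windows of all genes hold them. The GAS letters were in 1 of 36, that of Psmb8 (-97 to -89), where 7.02% of windows hold them. The core of the interferon element was in Psmb3, Psmd4 and Psmd9 and in no window of an immune catalytic gene (2.98% of windows). For Psmb8 and Psmb9 this covers only stretches inside the GENCODE genes, so it cannot show whether the element precedes their GENCODE starts. CCAAT, read on either strand, was in 13 of 36 members, among them 5 of 7 alpha ring genes and Psmb9 (33.8% of windows). Psmb7 had no window in the table. A match is a string of letters and not a measured binding site, and these windows hold no distal elements.

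The mix of constitutive and immune catalytic subunits differed between cell types by more than counting error. Of the UMIs of the 6 catalytic genes, the immune genes Psmb8, Psmb9 and Psmb10 made up 27.6% in epithelial or mammary tumor-like cells (18 to 39.1) and 32.6% in fibroblast-like cells of NEC (22.8 to 43.5). The share was 34.9% in TEC cluster 14 (34.1 to 35.7). It was 49.2% in B or plasma-like cells of NEC (45.5 to 52.9) and between 55.7% and 63.7% in T or NK-like and macrophage or monocyte-like cells of both libraries. Dendritic-like cells were highest, with 80.3% in NEC (75.3 to 84.6) and 75.2% in TEC (73.7 to 76.6). The non-leukocyte classes and cluster 14 thus lay below every leukocyte class in the order, and neighbours within the lower set (epithelial, fibroblast and cluster 14) overlapped in their intervals, as did macrophages and T or NK-like cells of NEC.

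**Figure D1:**
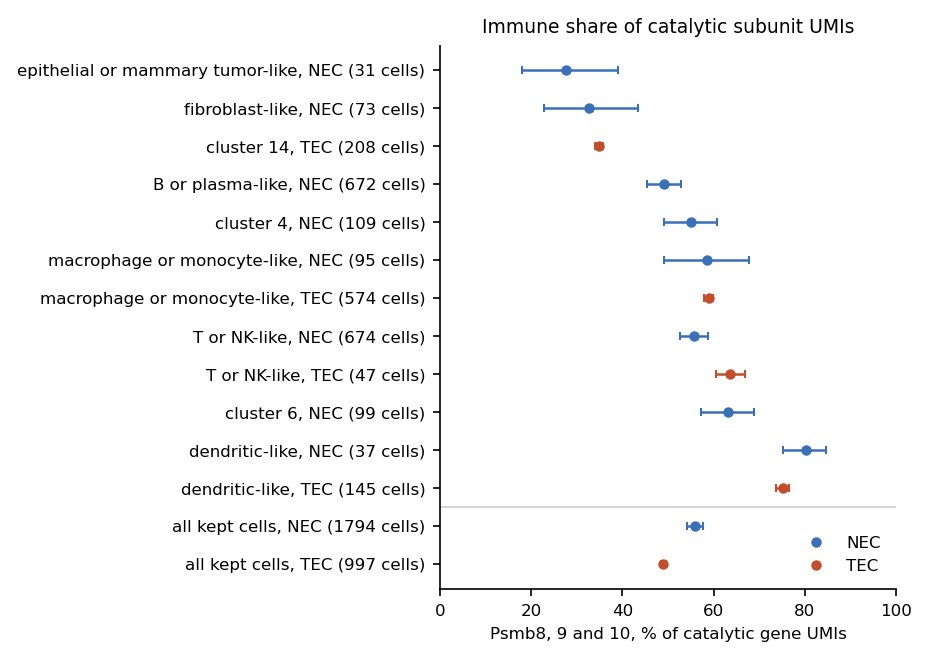
The horizontal axis is the share of Psmb8, Psmb9 and Psmb10 among the UMIs of the 6 catalytic genes (%), each row is a class or cluster of 1 library with its number of cells, and bars are exact 95% binomial intervals. The 3 lowest rows of share, at 27.6%, 32.6% and 34.9%, are not leukocyte classes, and dendritic-like cells are highest at 80.3% and 75.2%.

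Each pair of subunits that exchange for one another had its own balance. In TEC macrophage or monocyte-like cells Psmb8 held 76.3% of the UMIs of Psmb5 plus Psmb8 (75.0 to 77.5), Psmb10 held 56.1% with Psmb7 (54.0 to 58.3), and Psmb9 held 37.9% with Psmb6 (36.3 to 39.6). In dendritic-like cells of TEC the same shares were 87.6% for Psmb8 (86.1 to 89.1), 54.2% for Psmb10 (49.9 to 58.4) and 62.5% for Psmb9 (59.4 to 65.5). Dendritic-like cells therefore stood above macrophages in the LMP7 and LMP2 pairs, and in the MECL1 pair the intervals overlapped. Cluster 14 was lower in each pair, with 48.3% for Psmb8 (47.0 to 49.6), 32.0% for Psmb9 (30.7 to 33.2) and 21.3% for Psmb10 (20.1 to 22.5). In fibroblast-like cells of NEC Psmb9 had 2 UMIs against 28 of Psmb6, a share of 6.67% (0.818 to 22.1).

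Levels also differed within the rings. A UMI in these libraries marks 1 transcript end and its number was not divided by gene length. In TEC macrophage or monocyte-like cells the highest members by CPM were Psmb8 (687.8), the alpha ring gene Psma7 (543.7), Psme2 (509.1), Psmb6 (429.2) and the structural beta ring gene Psmb1 (385.2). In NEC cells of that class Psma7 (311.0), Psma3 (189.9) and Psmb1 (189.9) came before Psmb8 (127.7). Psmb8 was first in T or NK-like cells of TEC (629.9) and in dendritic-like cells of both libraries (845.1 in NEC, 1255 in TEC). In cluster 14 the order was Psma7 (922.0 CPM), Psmb1 (591.0) and Psma3 (582.9), and Psmb8 was at 280.6. Apart from Psma8, the lowest members were Psmd5, a chaperone of base assembly, at 12.7 CPM in TEC macrophage or monocyte-like cells, and Psme4, which encodes the activator PA200, at 21 CPM. Psma8, the testis form of an alpha subunit, had 0 UMIs in NEC and 10 in TEC, and takes no part in the comparisons.

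Within macrophage or monocyte-like cells, proteasome genes as a whole stood higher in the tumor library. The 43 genes together took 2658 CPM in NEC and 8140 CPM in TEC, a ratio of 3.06 (2.86 to 3.29). Both kinds of catalytic gene had the highest group ratios, and by similar factors. The constitutive genes went from 157.1 to 830.5 CPM (5.29-fold, 3.98 to 7.18) and the immune genes from 222.6 to 1189 CPM (5.34-fold, 4.21 to 6.89). The immune share was therefore 58.6% in NEC (49.1 to 67.7) and 58.9% in TEC (57.9 to 59.8), a difference of 0.260 percentage points that lies within counting error. Across the alternatives run, this difference ranged from -3.03 (NEC cells of at least 4000 UMIs) to 5.43 points (mean of per-cell values), so its sign was not fixed. The activators together had a ratio of 3.59 (2.88 to 4.54), whose interval overlaps those of the catalytic groups, and the structural beta ring, alpha ring, base ATPases and other cap subunits were between 2.42 and 2.80.

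**Figure D2:**
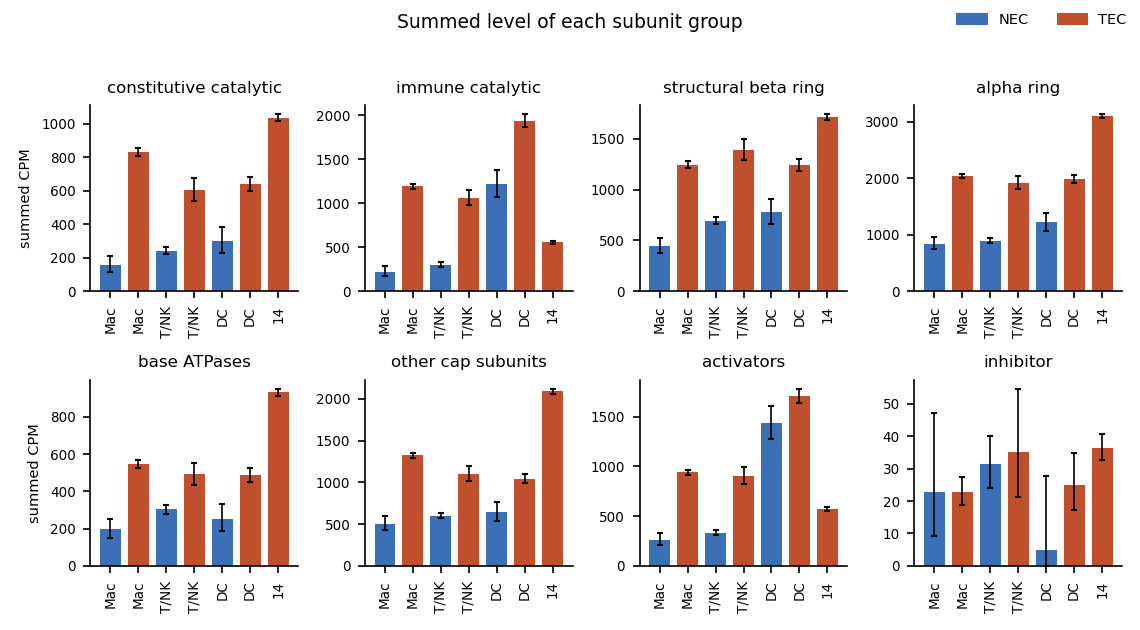
Bars are the summed CPM of each subunit group in macrophage or monocyte-like (Mac), T or NK-like (T/NK) and dendritic-like (DC) cells of both libraries and in cluster 14 of TEC (14), each panel with its own axis from 0, and error bars are exact 95% Poisson intervals. Cluster 14 is the highest bar for the constitutive genes (1036 CPM) and has less than either dendritic-like bar for the immune genes (555.2 CPM) and activators (572.1 CPM). In both of these groups it is also below the other TEC bars. It is above the NEC bars of macrophage or monocyte-like (222.6 and 261.9 CPM) and T or NK-like cells (303.7 and 331.6 CPM).

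Among the constitutive genes, Psmb5 (chymotrypsin-like activity) stood at 39.3 CPM in the NEC and 214.2 CPM in the TEC cells of this class, 5.45-fold higher (3.11 to 10.6). Psmb6 (caspase-like activity) went from 85.1 to 429.2 CPM (5.04-fold, 3.43 to 7.74), and Psmb7 (trypsin-like activity) from 32.7 to 187.1 CPM (5.72-fold, 3.09 to 12.0). The NEC values rest on 12, 26 and 10 UMIs. Among the immune genes, Psmb8 went from 127.7 to 687.8 CPM (5.39-fold, 3.93 to 7.59), Psmb9 from 45.8 to 262.0 CPM (5.72-fold, 3.40 to 10.5) and Psmb10 from 49.1 to 239.4 CPM (4.88-fold, 2.94 to 8.74). The intervals of these 6 ratios overlap one another, so counting error did not separate a catalytic gene from its partner.

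A gene was counted as higher or lower when it had at least 50 UMIs over both sums, a ratio of at least 1.5 and an interval that excluded 1. Here 34 of the 42 members with enough UMIs were higher in TEC and 0 were lower; over all 6317 genes compared, 25.2% were higher and 11.5% lower. The median log2 ratio was 1.72 over the members and 0.43 over all genes. Beyond a 2-fold ratio 31 members were higher and 0 lower, against 20.1% and 8.50% of all genes. The other beta ring and alpha ring genes were higher without exception (4 of 4 and 7 of 7), with ratios from 1.75 for Psma7 (1.42 to 2.17) to 4.17 for Psmb2 (2.74 to 6.68). Psma1 (3.66-fold, 2.30 to 6.19) and Psma2 (3.89-fold, 2.63 to 6.04) were at the upper end, and Psma3 (1.89-fold, 1.46 to 2.5) and Psmb1 (2.03-fold, 1.56 to 2.68), which were among the most abundant in NEC, at the lower end.

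Of the cap groups, 5 of 6 base ATPases and 10 of 14 Psmd genes were higher. Psmc2 (5.83-fold, 2.48 to 18) and Psmc4 (4.69-fold, 2.26 to 11.7) had the highest lower bounds of the ATPases, while Psmc1 was at 36.0 and 64.4 CPM, a ratio of 1.79 whose interval reached 1 (0.986 to 3.62). Psmd14, the deubiquitinase of the cap, went from 22.9 to 99.9 CPM (4.36-fold, 2.10 to 10.9). Psmd4, a ubiquitin receptor of the cap, was 2.56-fold higher (1.68 to 4.10) and Psmd8 2.62-fold (1.90 to 3.71). Psmd1, Psmd5, Psmd7 and Psmd11 did not meet the rule; Psmd7 was at 68.7 and 105.8 CPM (ratio 1.54, 0.996 to 2.51).

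The interferon-inducible activator genes differed and the rest of their group could not be placed. Psme1 went from 117.9 to 382.0 CPM (3.24-fold, 2.33 to 4.64) and Psme2 from 117.9 to 509.1 CPM (4.32-fold, 3.11 to 6.18). Psme3, which encodes the nuclear activator, had 4 UMIs in NEC and a ratio of 2.14 (0.818 to 7.98), and Psme4 also had 4 and a ratio of 1.60 (0.608 to 5.99). Psmf1, the inhibitor PI31, stood at 22.9 CPM in NEC (7 UMIs) and 22.8 CPM in TEC, a ratio of 0.995 (0.468 to 2.53). Psme2 has a near-identical copy, Psme2b, in the table as a row of its own; it was at 29.5 and 32.9 CPM in these cells, and so the counts of Psme2 are uncertain where reads could fall to either copy.

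The size of these ratios depended on which NEC cells were taken. Clusters 4 and 6 (109 and 99 NEC cells) also met the marker rule for this class but were left unnamed, since their 10 leading genes by fold held more markers of another list (3 neutrophil markers in cluster 6, and 1 adipocyte marker, Lpl, in cluster 4, which was led by Lyz1, Fcrls and Ear2). With them added, the ratio was 3.42 for the constitutive (3.03 to 3.87) and 3.42 for the immune catalytic genes (3.09 to 3.79), 2.35 for all members (2.27 to 2.43) and 2.06 for Psmf1 (1.16 to 3.99), and 36 of 42 members were higher, as were 2262 of 6689 genes. With NEC cells under 4000 UMIs removed and the cells clustered anew (114 NEC and 531 TEC cells in the class), Psmb5 was 2.29-fold, Psmb7 2.94-fold and Psmb8 2.61-fold higher. Different clusters then carried the class name, so depth and the choice of cells cannot be told apart in these ratios. A Cd3 UMI was found in 3 of 95 NEC and 89 of 574 TEC cells of this class, and the 11 T or NK markers summed to 137.5 CPM in NEC (5 of them at 0) and 386.8 CPM in TEC (0 at 0); without cells holding Cd3 the immune share differed by -0.235 percentage points and 36 of 42 members were higher, as were 1519 of 5680 genes. The class's own 16 markers summed to 37169 CPM in NEC and 17594 CPM in TEC, the 5 pan-leukocyte markers to 1234 and 4160 CPM, the 7 neutrophil markers to 121.1 CPM (3 at 0) and 464.3 CPM (0 at 0), and the 4 plasmacytoid dendritic markers to 183.3 CPM (2 at 0) and 669.0 CPM (0 at 0); their part in the ratios was not tested. Median depth was 2815 UMIs in NEC and 7607 in TEC, and with every cell thinned to 2000 UMIs 30 of 36 members were higher, as were 868 of 2802 genes.

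**Figure D3:**
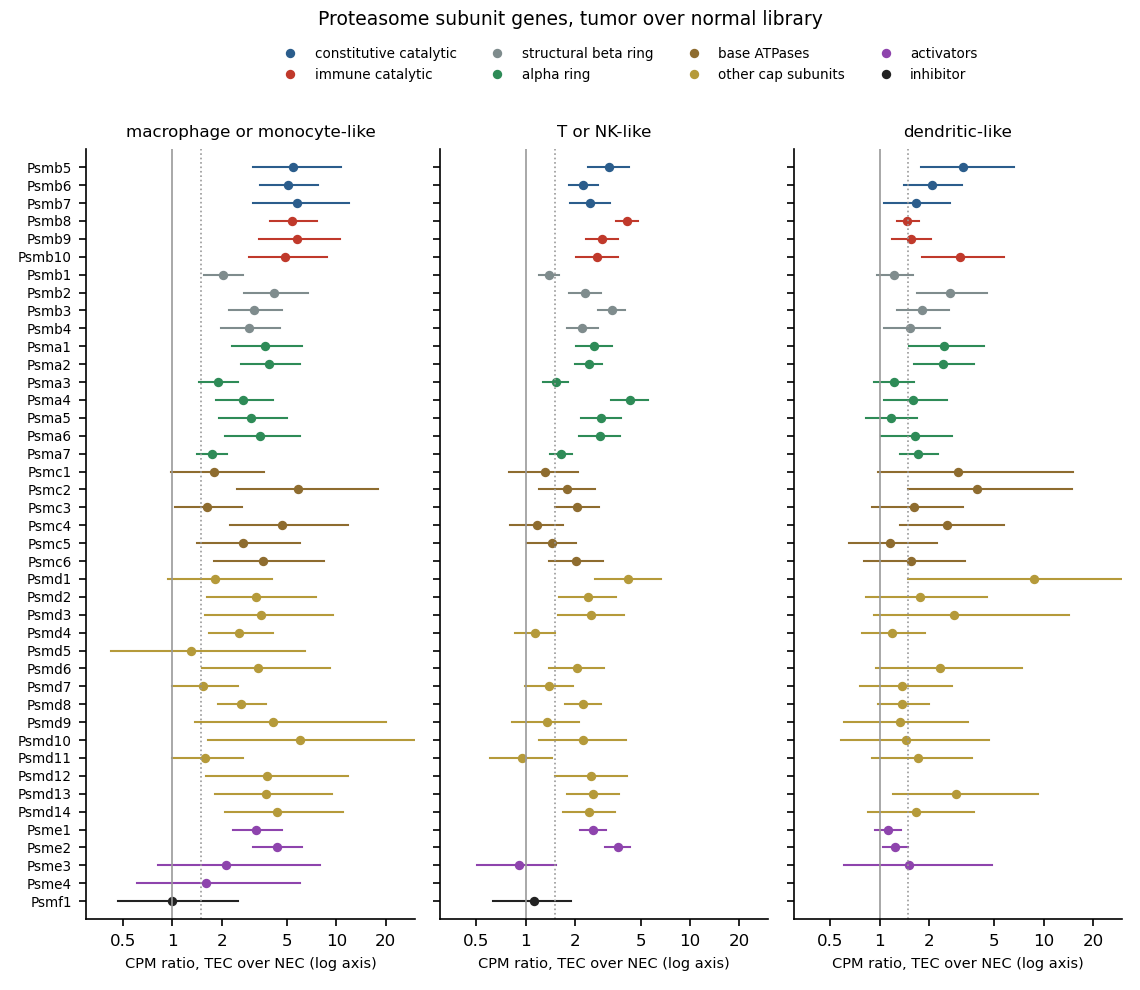
Points are the ratio of CPM in TEC over NEC for each member with at least 50 UMIs, on a log axis, and lines are 95% counting intervals, drawn as far as 30; the solid line marks 1 and the dotted line 1.5. In macrophage or monocyte-like cells the 6 catalytic genes lie between 4.88 and 5.72, in T or NK-like cells Psmb8 (4.15) and Psma4 (4.28) are at the right, and in dendritic-like cells most lines reach below 1.5.

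In T or NK-like cells the tumor library was higher too, and more so for the summed immune than for the summed constitutive catalytic genes. All members together took 3408 CPM in NEC and 7512 CPM in TEC (2.20-fold, 2.12 to 2.29). The constitutive catalytic genes went from 241.5 to 604.1 CPM (2.5-fold, 2.17 to 2.88) and the immune genes from 303.7 to 1061 CPM (3.49-fold, 3.11 to 3.92). The immune share was 55.7% in NEC (52.7 to 58.7) and 63.7% in TEC (60.5 to 66.9), higher by 8.01 percentage points with intervals that do not overlap. Within each exchange pair the NEC and TEC intervals overlapped. Psmb8 held 74.7% of its pair in NEC (70.2 to 78.8) and 79.4% in TEC (75.2 to 83.1). The shares were 42.9% (38.3 to 47.6) and 49.3% (43.6 to 55.1) for Psmb9. For Psmb10 they were 47.2% (40.8 to 53.6) and 49.7% (41.9 to 57.5). Psmb8 had the highest ratio of the 6 genes, with 151.9 CPM in NEC and 629.9 CPM in TEC (4.15-fold, 3.55 to 4.85). Psmb9 went from 95 to 276.3 CPM (2.91-fold, 2.33 to 3.62) and Psmb10 from 56.8 to 154.7 CPM (2.72-fold, 2.03 to 3.64), while Psmb5 was 3.19-fold (2.38 to 4.27), Psmb6 2.24-fold (1.83 to 2.75) and Psmb7 2.46-fold higher (1.85 to 3.26).

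By the 1.5-fold rule 30 of 40 members were higher in TEC T or NK-like cells and 0 lower, where 32.1% of 4193 genes were higher and 18.3% lower. At 2-fold these numbers were 27 and 0 members, against 21.7% and 14.4% of genes. The median log2 ratio was 1.18 over the members and 0.19 over all genes. All 7 alpha ring genes were higher, led by Psma4 (56.3 to 241.3 CPM, 4.28-fold, 3.31 to 5.55). In the beta ring Psmb3 was 3.33-fold higher (2.76 to 4.01), and Psmb1, the most abundant member in NEC at 351.7 CPM, had a ratio of 1.39 (1.2 to 1.60) and did not meet the rule. The cap groups were less uniform: 3 of 6 ATPases and 9 of 13 Psmd genes were higher. Psmd1, the large scaffold of the base, was at 4.16-fold (2.62 to 6.62) and Psmd11 at 0.948 (0.608 to 1.44). Psme1 was 2.56-fold (2.14 to 3.06) and Psme2 3.62-fold higher (3.03 to 4.31), against 0.902 for Psme3 (0.507 to 1.52) and 1.12 for Psmf1 (0.631 to 1.89).

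Different clusters held most of this class in the libraries, cluster 3 in NEC (500 cells) and cluster 10 in TEC (44 cells). Within cluster 10, which also held 95 NEC cells, the immune share was 55.1% in NEC (48.7 to 61.5) and 64.2% in TEC (60.9 to 67.4), and 19 of 31 members were higher and 0 lower, where 28.8% of genes were higher and 20.4% lower. There Psmb10 was 3.46-fold (1.95 to 6.62), Psmb9 2.95-fold (1.98 to 4.53) and Psmb8 2.20-fold higher (1.74 to 2.81), while Psmb5 was 1.96-fold higher (1.24 to 3.21) and Psmb7, at 133.1 and 155.5 CPM, had a ratio of 1.17 (0.792 to 1.75) and did not meet the rule. The group ratios there were 1.71 for the constitutive (1.37 to 2.15) and 2.5 for the immune catalytic genes (2.07 to 3.04), with intervals that overlap. Proliferation markers (15 genes) summed to 353.9 CPM in NEC (2 genes at 0) and 1614 CPM in TEC (0 at 0) in that cluster, and over the class to 176.8 and 1565 CPM. Macrophage or monocyte markers (16 genes) summed to 161.2 CPM in NEC (4 at 0) and 561.7 CPM in TEC (0 at 0) over the class, neutrophil markers (7 genes) to 13.2 CPM (2 at 0) and 554.4 CPM (2 at 0), and plasmacytoid dendritic markers (4 genes) to 57.3 CPM (1 at 0) and 281.8 CPM (2 at 0). In cluster 10 the neutrophil sum was 19.5 CPM (4 at 0) and 573.5 CPM (2 at 0). Over the class ribosomal protein genes took 48.4% and 36.6% of UMIs. Their part in the differences was not tested. Without ribosomal protein and mitochondrial UMIs 26 of 40 members were higher and 0 lower, the median log2 ratio became 0.84 over members and -0.16 over all genes, and 907 genes were higher and 1211 lower in place of 1348 and 769.

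In dendritic-like cells the differences were smaller, and the constitutive ratio stood above the immune one with overlapping intervals. All members took 5836 CPM in NEC and 9063 CPM in TEC (1.55-fold, 1.46 to 1.65). The constitutive catalytic genes were 2.14-fold higher (1.65 to 2.83, 298.3 to 638.3 CPM), the immune genes 1.60-fold (1.40 to 1.83, 1213 to 1936 CPM) and the activators 1.19-fold (1.06 to 1.35, 1432 to 1710 CPM). The immune share, already high in NEC, differed by -5.06 percentage points, with intervals that overlap. Psmb8 was at 845.1 and 1255 CPM (ratio 1.48, 1.27 to 1.75) and Psmb9 at 298.3 and 465.9 CPM (1.56-fold, 1.2 to 2.07). Psmb10 had 14 UMIs in NEC and went from 69.6 to 215.0 CPM (3.09-fold, 1.81 to 5.72), and Psmb5 from 54.7 CPM (11 UMIs) to 176.8 CPM (3.23-fold, 1.78 to 6.56). Psmb6 was 2.08-fold (1.41 to 3.2) and Psmb7 1.66-fold higher (1.07 to 2.70).

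Of 38 members with enough UMIs, 17 were higher in TEC dendritic-like cells and 0 lower, where 23.9% of 3150 genes were higher and 7.33% lower. At 2-fold these numbers were 10 and 0 members, against 18.7% and 4.60% of genes. The median log2 ratio was 0.72 over the members and 0.39 over all genes. Psma2 (2.42-fold, 1.63 to 3.74), Psma1 (2.47-fold, 1.52 to 4.31) and Psmb2 (2.70-fold, 1.70 to 4.53) had the highest lower bounds outside the catalytic genes. Psmd1 rests on 1 UMI in NEC (ratio 8.71, 1.5 to 349.7). Psme1 (646.3 and 726.4 CPM, ratio 1.12, 0.935 to 1.36) and Psme2 (745.7 and 928.9 CPM, ratio 1.25, 1.05 to 1.49) did not meet the rule. The TEC cells came mostly from cluster 7 (83 cells) and the NEC cells mostly from cluster 15 (21 cells). Within cluster 15 the immune share was 85.1% in NEC (79.2 to 89.9) and 79.4% in TEC (77.4 to 81.4), and 10 of 26 members were higher and 0 lower, where 24.2% of genes were higher and 9.45% lower. The 11 dendritic markers themselves summed to 4131 CPM in NEC (2 at 0) and 2646 CPM in TEC (0 at 0) over the class, and in the TEC cells of cluster 7 to 787.3 CPM against 3081 CPM of macrophage or monocyte markers. Macrophage or monocyte markers summed to 795.4 CPM in NEC (5 of 16 at 0) and 2913 CPM in TEC (0 at 0) over the class, and T or NK markers to 9.94 CPM (9 of 11 at 0) and 559.1 CPM (0 at 0); their part was not tested, and without the cells that held Cd3 the immune share differed by -5.69 points and 16 of 34 members were higher, as were 676 of 2663 genes.

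Cluster 14 gave a contrast inside the tumor library that needs no comparison across libraries. It held 20.9% of TEC cells and 56.9% of TEC UMIs, with a median of 37307 UMIs per cell, and its pan-leukocyte markers summed to 130.4 CPM against 4160 CPM in cluster 8, the TEC macrophage or monocyte-like cells. All members took 10037 CPM in it, 1.23-fold the level of cluster 8 (1.22 to 1.25). The summed groups lay on both sides of 1: base ATPases were 1.70-fold (1.63 to 1.78), other cap subunits 1.58-fold (1.54 to 1.63), the alpha ring 1.52-fold (1.49 to 1.55) and constitutive catalytic genes 1.25-fold the level of cluster 8 (1.2 to 1.29), while immune catalytic genes were at 0.467 (0.450 to 0.485) and the activators at 0.609 (0.585 to 0.633). The median log2 ratio was 0.44 over all genes compared and 0.64 over the members. It was 0.49 over the constitutive catalytic genes, near that of all genes, and -1.29 over the immune catalytic genes.

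Of 42 members compared, 22 were higher and 5 lower in cluster 14 by the 1.5-fold rule, where 44.8% of 9579 genes were higher and 25.0% lower. The lower ones were Psmb8 (280.6 against 687.8 CPM, ratio 0.408, 0.387 to 0.429), Psmb10 (96.1 against 239.4 CPM, ratio 0.402, 0.368 to 0.438), Psme1 (204.9 against 382.0 CPM, ratio 0.537, 0.503 to 0.572), Psme2 (255.9 against 509.1 CPM, ratio 0.503, 0.475 to 0.532) and Psmd10, an assembly chaperone (23.4 against 39.4 CPM, ratio 0.595, 0.488 to 0.725). Psmb9 was at 178.5 against 262.0 CPM, a ratio of 0.681 (0.633 to 0.733). Inside the constitutive trio Psmb7 was 1.90-fold (1.77 to 2.05) and Psmb5 1.40-fold the level of cluster 8 (1.31 to 1.51), and Psmb6 was at 0.886 (0.839 to 0.935). Psmd7 (2.52-fold, 2.29 to 2.77), Psme3 (2.48-fold, 2.06 to 3), Psmd1 (2.32-fold, 2.03 to 2.66) and Psmd12 (2.25-fold, 1.99 to 2.56) were furthest on the higher side after Psmd5, which was 3.24-fold on 63 UMIs in cluster 8 (2.48 to 4.30). Cluster 14 also had 1371 CPM of proliferation markers against 168.4 CPM in cluster 8, and cell type, depth and cycling cannot be told apart in this contrast.

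**Figure D4:**
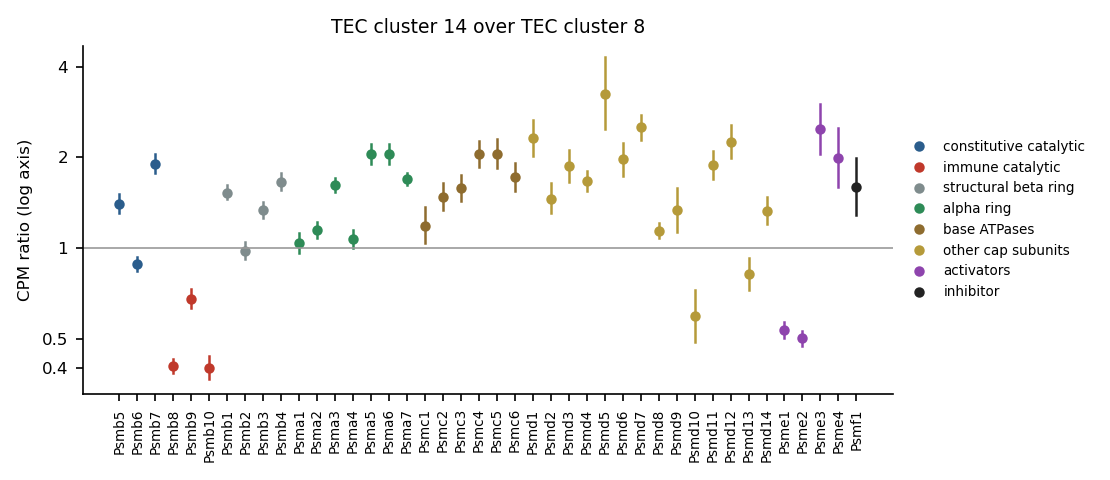
Points are the ratio of CPM in cluster 14 over cluster 8 for 42 members of the tumor library, on a log axis, with 95% counting intervals as lines and colours for the subunit groups. The immune catalytic genes (0.402 to 0.681) and the activators Psme1 and Psme2 (0.537 and 0.503) lie below 1, whereas the base ATPases (1.19 to 2.05) lie above it.

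Dendritic-like cells of the tumor library stood on the other side of cluster 8 from cluster 14 for Psmb8, Psmb9, Psme1 and Psme2. Psmb8 (1.82-fold, 1.72 to 1.93), Psmb9 (1.78-fold, 1.61 to 1.96), Psme1 (1.90-fold, 1.76 to 2.05) and Psme2 (1.82-fold, 1.70 to 1.95) were the 4 members higher by the rule, where 12.8% of 6839 genes were. Psmb6 (0.651, 0.582 to 0.727), Psmd3 (0.622, 0.462 to 0.824) and Psmd12 (0.545, 0.390 to 0.744) were lower, where 19.2% of genes were, and the remaining 35 members met neither rule. Psmb10 was at 0.898 of the level in cluster 8 (0.787 to 1.02).

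Cells of a class were then split at the median of their summed level of 20 interferon response genes, none of which is a proteasome gene. In cluster 8 the 287 cells above the median (17658 CPM of the list, median depth 7534 UMIs) had 1532 CPM of immune catalytic genes (1483 to 1582), and the 287 others (4091 CPM, 7727 UMIs) had 857.1 CPM (821.2 to 894.0). Constitutive catalytic genes stood at 813.9 CPM (778.4 to 850.5) and 846.7 CPM (811.1 to 883.5), so the immune share was 65.3% (64.1 to 66.5) above and 50.3% (48.8 to 51.8) below the median. Psme1 plus Psme2 were at 1061 CPM (1021 to 1103) and 726.2 CPM (693.3 to 760.3). In cluster 14 the immune share was 39.8% (38.8 to 40.9) in the 104 cells above and 28.9% in the 104 cells below, outside that interval, and in T or NK-like cells of NEC 59.3% (55.2 to 63.2) and 51.5% (47.0 to 55.9).

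The intervals of the T or NK-like cells overlapped, as did those of the dendritic-like cells of TEC and of the B or plasma-like cells of NEC. The immune shares above and below the median were 75.7% (73.6 to 77.7) and 74.7% (72.6 to 76.7) in dendritic-like cells, and 50.3% (44.8 to 55.8) and 48.3% (43.2 to 53.4) in B or plasma-like cells. In dendritic-like cells Psme1 plus Psme2 were lower above the median of the list, at 1510 CPM (1419 to 1606) against 1795 CPM (1697 to 1897). The same cells split by 15 proliferation genes gave 58.9% and 58.8% in cluster 8 and 34.8% and 35.0% in cluster 14. The level of all members differed with both lists in cluster 14. It was 10802 CPM (10718 to 10887) above and 8727 CPM (8629 to 8827) below the median of the proliferation list, in cells with median depths of 55825 and 27574 UMIs, so that depth and list level cannot be told apart there. By the interferon list it was 10735 CPM (10640 to 10831) above and 9374 CPM (9287 to 9461) below, with median depths of 38034 and 36512 UMIs. In cluster 8 the interferon split gave 8663 CPM (8547 to 8781) and 7632 CPM (7524 to 7741). The cells on both sides of a split share a library. Whether a split also sorted subtypes of a class was not tested, and no values over all genes are given beside it.

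**Figure D5:**
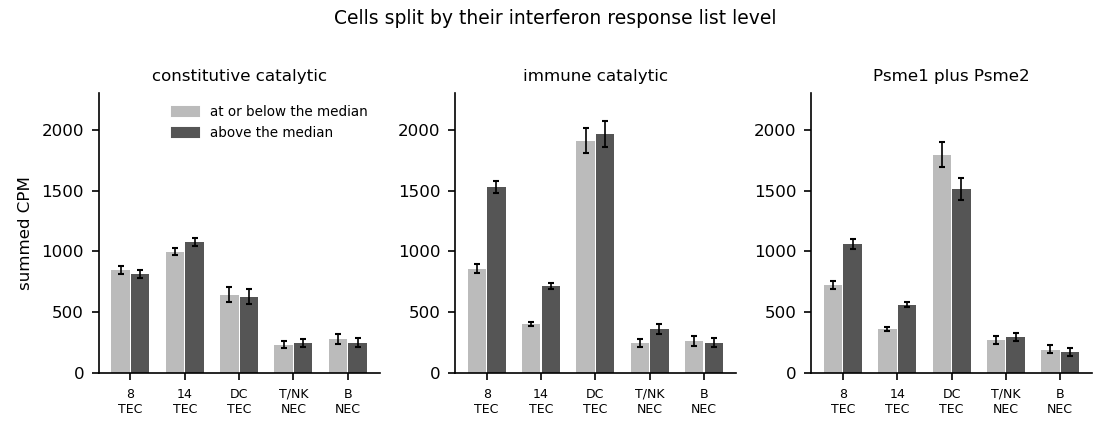
Bars are summed CPM in cells at or below (light) and above (dark) the median of the interferon response list, for TEC clusters 8 and 14, dendritic-like cells of TEC (DC), and T or NK-like and B or plasma-like cells of NEC, with exact 95% Poisson intervals. In cluster 8 the immune catalytic genes are at 857.1 and 1532 CPM while the constitutive genes are at 846.7 and 813.9 CPM.

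Other genes of the pathway were compared in the same macrophage or monocyte-like class, where 25.2% of all genes compared were higher and 11.5% lower. Pomp, which matures the core particle, was 2.25-fold higher in TEC (1.73 to 2.98), and it was the 1 of 4 assembly genes with enough UMIs that met the rule (median log2 ratio 0.65). Among the 5 regulators of proteasome genes 0 were higher and 2 lower: Bach1, a repressor of ARE-driven genes, went from 419.0 to 88.0 CPM (ratio 0.210, 0.172 to 0.258) and Ddi2, the protease that activates Nfe2l1, from 49.1 to 19.2 CPM (ratio 0.391, 0.225 to 0.725). Nfe2l2 was at 258.6 and 217.6 CPM (ratio 0.841, 0.669 to 1.07). Nfe2l1 itself was at 13.1 CPM in NEC, on 4 UMIs, and at 25.4 CPM in TEC, and did not meet the rule. Ubb, which encodes a chain of ubiquitin units, went from 4907 to 2711 CPM (ratio 0.553, 0.524 to 0.583), the direction opposite to that of the proteasome subunits.

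Downstream of the proteasome, 4 of 11 genes of class I peptide loading were higher and 1 lower (median log2 ratio 0.84). Tap1, the peptide transporter subunit next to Psmb9, went from 91.7 to 198.4 CPM (2.16-fold, 1.49 to 3.28), Tapbp from 101.5 to 252.1 CPM (2.48-fold, 1.74 to 3.67) and B2m from 3614 to 7535 CPM (2.08-fold, 1.96 to 2.22). Canx, a chaperone of class I heavy chains, was lower (0.514, 0.415 to 0.643). Of the 10 interferon regulators 5 were higher and 0 lower, among them Ifngr1 (62.2 to 153.2 CPM, 2.46-fold, 1.57 to 4.11) and Irf8 (2.28-fold, 1.55 to 3.51), while Irf1 was at 55.7 and 62.2 CPM (ratio 1.12, 0.686 to 1.94). In T or NK-like cells 1 of 8 regulators compared was higher and 4 lower, where 32.1% and 18.3% of genes were. In dendritic-like cells 3 of 8 were higher and 0 lower, where 23.9% and 7.33% of genes were. Among genes of the interferon response, in macrophage or monocyte-like cells, 19 of 20 met the rule for higher and 0 that for lower (median 2.62). The highest lower bound was that of Irf7 (38.4-fold, 20.9 to 80.2), and Ifit1 had a higher ratio on 1 UMI in NEC (74.9, 13.4 to 2962). In a list of 12 heat shock and stress genes 1 was higher and 6 lower (median -0.69), with Hsp90aa1 at 0.420 (0.367 to 0.481) and Egr1 at 0.185 (0.130 to 0.269); the part of these in the ratios of the members was not tested.

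Over all kept cells the libraries mixed different cell types, and the catalytic balance differed from that in the macrophage and T or NK classes. All members took 3436 CPM in NEC and 9247 CPM in TEC (2.69-fold, 2.65 to 2.73), and 40 of 42 were higher and 0 lower, where 41.9% of 10639 genes were higher and 19.5% lower. The immune share was 56.0% in NEC (54.2 to 57.7) and 48.9% in TEC (48.4 to 49.5), lower by 7.02 percentage points, whereas it differed by 0.260 in macrophage or monocyte-like and by 8.01 points in T or NK-like cells. With every cell given equal weight the sign turned, 53.3% in NEC and 58.9% in TEC; cluster 14, whose own share was 34.9%, held 20.9% of the cells and 56.9% of the UMIs of its library.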

How the data were processed

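The sorted cells of each tissue were profiled with 1 10x Genomics 3' library. The programs named in the submitters' processing notes are STAR 2.5.1b, Cell Ranger 2.0.2 and Seurat, with the build mm10, and no settings are recorded there. The deposited values are raw UMI counts, not normalized, for 13774 genes in 1806 NEC cells (5228289 UMIs) and 1000 TEC cells (16444540 UMIs). Cells named "control" were taken as NEC on that word alone and "tumor" as TEC; 0 columns were left over. The shallowest TEC cell had 6376 UMIs and the shallowest NEC cell 1157, a gap in depth that can set the shares of cells.

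Cells under 500 genes or 1000 UMIs, or above 10% mitochondrial UMIs, were removed (5 NEC cells), as were Scrublet calls (7 NEC, 3 TEC). After scaling each cell to 10000 UMIs and taking logs, 15 clusters were found with the Leiden method (resolution 0.8) from 2000 variable genes that excluded the members, with 30 components and 15 neighbors (scanpy 1.11.5, anndata 0.12.19, python-igraph 0.11.9, scikit-learn 1.9.0, Python 3.11.15). A class name was given to a cluster in which 3 or more of its markers were seen in 10% of cells, reached 50 CPM and exceeded the remaining cells 2-fold (5 CPM added to both), unless its top 10 genes by fold held more markers of another class.

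UMIs were summed per library and class. CPM has exact Poisson intervals, shares exact Clopper-Pearson intervals, and ratios Clopper-Pearson intervals conditional on the gene's total (scipy 1.17.1, numpy 2.4.6, pandas 2.3.3; figures with matplotlib 3.10.9). A sum of 0 was set to 3 counts. All intervals cover counting error only. The 6 catalytic genes, the activators and the inhibitor are named whatever their values; others are named if among the 5 with the highest lower or the 5 with the lowest upper bound of a comparison, if past 2-fold, or if at 0 in a library, and at most 3 at each end of a pathway list. Members called in cluster 14 and those given for their place in an order were named after their values were seen. The fold rule was tested on simulated counts. The members, lists, naming rule and splits were chosen with earlier results of these data known, and the contrasts inside TEC, the splits and some of the alternatives after the data had been seen. Some genes of the pathway lists are not reported here.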

Additional observations from a re-analysis of the deposited data

Results flagged for a closer look

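The immune share of catalytic UMIs differed between the libraries in opposite directions in the classes: TEC minus NEC was 8.01 percentage points in T or NK-like cells and -5.06 percentage points in dendritic-like cells. The difference between these effects was not tested, since each group is 1 library. The intervals of the summed shares were apart in T or NK-like cells and overlapped in dendritic-like cells. Within each exchange pair of T or NK-like cells the intervals overlapped. With NEC cells of at least 4000 UMIs the differences were 12.1 points in T or NK-like and -2.53 points in dendritic-like cells. The cells were clustered anew in that setting, and the T or NK-like class held 102 TEC cells in place of 47. Of these, 52 came from a cluster with 0 NEC cells, so depth and the choice of cells cannot be told apart there.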

How the results depend on the processing

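No paired analysis was possible because each group is 1 library, and for the same reason no replicate could be left out. Over all kept cells the difference in immune share (-7.02 points) was -10.8 with NEC cells of at least 4000 UMIs, and it reversed to 2.63 with cells thinned to 2000 UMIs and to 5.53 with the mean of per-cell values. In T or NK-like cells it was 12.7 after thinning and 12.1 with NEC cells of at least 4000 UMIs, and in dendritic-like cells it ranged from -6.14 after thinning to -2.53 with those cells. The 4000-UMI setting clustered the cells anew, and its T or NK-like class held 102 TEC cells in place of 47. The count of members higher in TEC by the 1.5-fold rule in T or NK-like cells (30 of 40) was 16 of 29 after thinning, where 479 of 2045 genes were higher, and 19 of 31 in the 1 cluster shared by both libraries (529 of 1835 genes). In dendritic-like cells (17 of 38) it was 11 of 21 after thinning (226 of 875 genes), 9 of 24 at Leiden resolution 0.4 (356 of 1473), 26 of 38 with the mean of per-cell values (999 of 3150) and 10 of 26 in the shared cluster (381 of 1576); fewer members had enough UMIs after thinning and in single clusters. Single ratios that reversed were Psme3 over all kept cells after thinning (0.955), and in dendritic-like cells Psma4 (0.980) and Psmb4 (0.859) at resolution 0.4 and Psmb4 in the shared cluster (0.911); the cause was not tested. No member was lower by the rule under any setting run in the 3 classes and all kept cells. Scaling with TMM-type factors moved the median log2 ratio of all genes in T or NK-like cells from 0.19 to -0.16, and its calls from 1348 higher and 769 lower to 905 and 1212, while 26 members were higher and 0 lower; in macrophage or monocyte-like and dendritic-like cells 33 and 12 members were higher. Without ribosomal protein and mitochondrial UMIs the calls over all genes went from 752 higher and 231 lower to 577 and 311 in dendritic-like cells and from 4455 and 2073 to 3581 and 2702 over all kept cells, with 12 and 37 members higher. Cells with markers of another class could not be defined over all kept cells, so that alternative was not run there.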
